A study of Homo sapiens with 9 samples.

Results

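The 42 genes described here encode proteins of DNA replication and of the G1/S transition, the step at which a cell commits to copying its genome. They were taken from a list by symbol, and all 42 were listed in every one of the 9 gene tables, among 26636 genes common to them. In a dividing cell the origin recognition complex marks start sites on DNA, CDC6 and CDT1 load the MCM2 to MCM7 ring there in G1, and CDC45 and the GINS complex turn that ring into the replicative helicase at the onset of S phase. Polymerases, the sliding clamp PCNA and its RFC loader then copy the strands, while RRM1, RRM2, TYMS and TK1 supply nucleotides. Transcription of most of these genes is controlled by E2F factors, which RB proteins hold back until cyclin D and cyclin E kinases release them, and CDK inhibitors such as p21 (CDKN1A) oppose those kinases. Genes of mitosis form a later wave that is driven by B-MYB, FOXM1 and the MuvB complex and peaks in G2 and M.

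The libraries were made from total RNA of cells carrying the label BT549, which is an established line of triple-negative breast carcinoma known for its mesenchymal features. The knockdown groups were 3 libraries transfected with siWFDC21P-1 and 3 with siWFDC21P-2, which are 2 siRNAs against the transcript of the pseudogene WFDC21P and whose genotype label reads WFDC21P knockdown. They were set against 3 libraries transfected with siNC, a control siRNA, with the genotype label WT. All 9 received 5 µl of a 10 µM siRNA stock 24 h after seeding and were harvested 48 h later. The values are FPKM, in which read numbers are divided by transcript length and by the size of the library, so levels can be set side by side between genes.

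The libraries fell into 3 expression sets that cut across the labelled groups, with Pearson correlations of log2(FPKM + 1) over 12922 genes of 0.928 to 0.986 within sets and 0.657 to 0.742 between them. The genes of replication and mitosis took no part in that clustering. Set 1 held siWFDC21P-1 replicates 1 and 2 with siNC replicate 1, set 2 held siWFDC21P-1 replicate 3 with siNC replicate 2, and set 3 held the 3 siWFDC21P-2 libraries with siNC replicate 3. The 8 mesenchymal markers summed to 682 to 721 FPKM in set 3, to 61.8 to 66.4 FPKM in set 1 and to 9.44 to 14.6 FPKM in set 2, where CDH2 was listed at 0. The 8 epithelial markers summed to 1080 and 1680 FPKM in set 2, to 174 to 384 FPKM in set 1 and to 7.01 to 10.2 FPKM in set 3. Mesenchymal markers of the labelled line differed in whether they followed the sum. In sets 1 and 2 CDH2, THY1 and COL1A2 were at or below 0.0272 FPKM and MMP14 at or below 0.238 FPKM, against at least 14.7 FPKM for each of these in set 3. VIM was at 38.5 to 41.0 FPKM in set 1 and at most 0.699 FPKM in set 2. COL1A1 was higher in set 1 (18.7 to 19.2 FPKM) than in siNC replicate 3 (4.24 FPKM), and FN1 was highest in siNC replicate 2 (11.2 FPKM). Every library carries the same cell line label, and whether the sets are cells of a single line was not tested. The 4 listed leukocyte markers summed to at most 36.3 FPKM and the 5 endothelial markers to at most 26.1 FPKM, both in set 2. Only 1 gene of each of these lists reached a mean of 1 FPKM over the libraries. In both libraries of set 2, 3 of the 5 endothelial markers were under 0.1 FPKM. The targeted gene itself stood at 0.0629 and 0.767 FPKM in the siWFDC21P-1 libraries of set 1 against 3.08 FPKM in siNC, and at 4.13, 3.32 and 2.12 FPKM in the siWFDC21P-2 libraries against 6.87 FPKM in siNC. In set 2 it stood at 0.227 FPKM (7 reads) in the library labelled siWFDC21P-1 replicate 3 against 0.129 FPKM (4 reads) in siNC. A knockdown could hardly be seen from so few reads in the control, so whether the labelled knockdown took place there cannot be told. That library is called the siWFDC21P-1-labelled library of set 2. Depth, recovered from the values, was 28.1 to 29.7 M reads in sets 1 and 2 and 16.3 to 17.4 M reads in set 3.

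Every knockdown library was therefore compared with the siNC library of its own set. Differences were tested with limma on log2(FPKM + 1) with group and set in the model and Benjamini-Hochberg adjustment (5% level) over the 13014 genes whose mean over the libraries reached 1 FPKM, among them all 42. Each set has 1 siNC library, so knockdown libraries of a set share their control, and the spread behind each standard error (SE) comes from all 9 libraries. A log2 change on this scale understates the change of genes with low values.

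Promoters of the replication genes were searched for motifs of the cell cycle. The motifs were the E2F-type octamers TTTCCCGC, TTTCGCGC, TTTGGCGC and TTTGCCGC, the CHR element TTTGAA or TTCGAA known from genes of mitosis, and CCAAT, each searched on both strands. None of these motifs contains another. In 300-base windows (250 before to 50 after a RefSeq start, GRCh38.p14), 37 of the 42 genes matched by symbol, with 49 windows. An E2F octamer was present in 23 of these 49 windows (46.9%), in 4 of 53 windows of mitotic genes (7.55%) and in 3.31% of all 35116 windows. The CHR element was present in 2 of 49 (4.08%), in 35 of 53 (66.0%) and in 16.4% of all windows, and CCAAT in 31 of 49 (63.3%), in 38 of 53 (71.7%) and in 34.6%. A match is a description of the letters and not a measured binding site.

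Shown first are the windows of 5 replication genes whose 6 knockdown libraries all lay on one side of their own controls. CDC6, GINS1 and RFC4 lay below them and MCM3 and TYMS above them. CCNE2 was also below its controls in all 6 libraries, but no window matched it by symbol. The mitotic genes CCNB2 and CDC20 follow for contrast. Capitals mark E2F octamers in the replication genes and CHR elements in the mitotic genes, on either strand.
CDC6 (chr17:40287629-40287928, plus strand): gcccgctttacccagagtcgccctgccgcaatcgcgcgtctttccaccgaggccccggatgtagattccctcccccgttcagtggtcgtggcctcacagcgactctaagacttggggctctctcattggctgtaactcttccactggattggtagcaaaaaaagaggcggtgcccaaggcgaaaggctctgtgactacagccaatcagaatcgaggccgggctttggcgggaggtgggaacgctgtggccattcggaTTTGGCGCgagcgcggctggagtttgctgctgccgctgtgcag
GINS1 (chr20:25407423-25407722, plus strand): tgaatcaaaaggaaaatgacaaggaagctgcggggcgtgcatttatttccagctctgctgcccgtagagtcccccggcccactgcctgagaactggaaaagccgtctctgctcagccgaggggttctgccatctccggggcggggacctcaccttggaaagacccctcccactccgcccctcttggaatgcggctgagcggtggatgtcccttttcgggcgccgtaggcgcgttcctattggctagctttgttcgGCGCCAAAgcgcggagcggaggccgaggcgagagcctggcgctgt
RFC4 (chr3:186806433-186806732, minus strand): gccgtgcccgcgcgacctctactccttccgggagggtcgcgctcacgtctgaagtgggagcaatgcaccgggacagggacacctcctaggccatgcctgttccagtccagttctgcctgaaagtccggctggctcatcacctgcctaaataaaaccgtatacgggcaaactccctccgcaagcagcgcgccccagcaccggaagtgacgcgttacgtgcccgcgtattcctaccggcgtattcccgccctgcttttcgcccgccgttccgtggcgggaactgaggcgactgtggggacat
MCM3 (chr6:52284693-52284992, minus strand): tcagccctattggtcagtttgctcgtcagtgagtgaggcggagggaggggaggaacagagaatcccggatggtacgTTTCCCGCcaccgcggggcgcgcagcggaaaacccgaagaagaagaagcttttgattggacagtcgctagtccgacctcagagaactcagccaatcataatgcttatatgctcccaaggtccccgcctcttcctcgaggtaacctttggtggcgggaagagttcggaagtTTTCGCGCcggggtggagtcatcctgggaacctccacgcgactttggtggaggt
TYMS (chr18:657403-657702, plus strand): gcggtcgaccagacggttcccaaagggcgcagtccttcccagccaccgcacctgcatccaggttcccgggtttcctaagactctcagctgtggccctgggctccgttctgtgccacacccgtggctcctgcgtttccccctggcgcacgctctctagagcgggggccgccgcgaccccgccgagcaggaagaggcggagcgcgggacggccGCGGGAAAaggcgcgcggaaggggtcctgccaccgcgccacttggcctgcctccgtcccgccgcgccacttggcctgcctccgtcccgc
CCNB2 (chr15:59104896-59105195, plus strand): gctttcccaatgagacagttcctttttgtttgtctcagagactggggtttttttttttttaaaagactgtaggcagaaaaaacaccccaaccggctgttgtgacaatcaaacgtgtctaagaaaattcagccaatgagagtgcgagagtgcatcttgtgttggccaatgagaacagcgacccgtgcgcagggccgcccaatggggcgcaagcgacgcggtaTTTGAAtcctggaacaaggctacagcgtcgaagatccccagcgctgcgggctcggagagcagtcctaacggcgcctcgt
CDC20 (chr1:43358731-43359030, plus strand): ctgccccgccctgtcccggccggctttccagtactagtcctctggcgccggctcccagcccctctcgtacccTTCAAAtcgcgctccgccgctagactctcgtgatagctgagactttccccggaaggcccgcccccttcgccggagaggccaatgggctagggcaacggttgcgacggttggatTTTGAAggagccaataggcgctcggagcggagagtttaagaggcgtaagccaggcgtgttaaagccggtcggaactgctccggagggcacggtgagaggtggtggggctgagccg
The octamer of CDC6 began 7 bases and that of GINS1 5 bases downstream of the RefSeq start, and that of TYMS 39 bases upstream of it. In MCM3 one octamer began 174 bases and the other 4 bases upstream of the start. The RFC4 window held none of the 4 octamers, which says only that these letters are not in it. The genes lower and the genes higher in all 6 libraries both included windows with an octamer.

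The replication genes as a group did not move in one direction after either siRNA. With siWFDC21P-1, 0 of 42 passed the adjusted threshold, against a background of 0.0231% of all tested genes (3 of 13014), and their median log2 change was 0.01, against 0.03 for all tested genes. At an unadjusted p under 0.05, 0 were higher, where the background was 8.69% (1131 genes), and 4 were lower, where it was 5.06% (659 genes). The 4 lower genes were CCNE2, CCND1, CLSPN and LIG1. In RNA from whole cultures, a smaller share of cells in S phase and less RNA per cell cannot be told apart. All 3 siWFDC21P-1 libraries lay above their own controls for 10 of the 42 genes (23.8%, background 27.9%) and below them for 13 (31.0%, background 20.7%). The 3 genes of the whole table that passed were CDKN1A, which was lower, and RPL26L1 and GANAB, which were higher. This count of 3 changed when single libraries were left out. It was 153 without siWFDC21P-2 replicate 1 and 1 without siWFDC21P-1 replicate 2. It was 0 without siNC replicate 1, siWFDC21P-1 replicate 1 or siWFDC21P-2 replicates 2 or 3. In each case 0 of the 42 replication genes passed. The siWFDC21P-2 libraries share no set with siWFDC21P-1, so they enter this count only through the shared spread. Without any 1 of them the median change of the 42 genes stayed at 0.01.

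With siWFDC21P-2, 0 of 42 passed, as did 0 of all 13014 genes (0.0%), and the median log2 change was 0.04, against 0.02 for all tested genes. At an unadjusted p under 0.05, TYMS was higher (background 2.89%, 376 genes), and CDC6 and CDT1 were lower (background 2.35%, 306 genes). All 3 siWFDC21P-2 libraries lay above their control for 4 genes (9.52%, background 26.9%) and below it for 7 (16.7%, background 26.0%). In replicate 1, 37 of the 42 genes were below the control, as were 6810 of all 13014 tested genes. Above it were 32 in replicate 2 (76.2%, all tested genes 53.2%) and 27 in replicate 3 (64.3%, all tested genes 53.8%). Without replicate 1, 902 genes passed in the same limma fit, which is 6.93% of all tested genes, and 4 of them were replication genes (9.52%), a share near that background. These were CDT1 (log2 change -1.16, adjusted p = 0.0289), FEN1 (0.88, adjusted p = 0.0367), TYMS (0.80, adjusted p = 0.0404) and UHRF1 (0.81, adjusted p = 0.0429). Over replicates 2 and 3 alone, 25 genes were above the control in both (59.5%, against 46.2% of all tested genes) and 8 below it in both (19.0%, against 39.1%).

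With both siRNAs pooled, 0 of 42 passed, against 0.00768% of all tested genes (1 gene, GANAB), and the median log2 change was 0.05, against 0.03. At an unadjusted p under 0.05, 2 were higher, GINS2 and TYMS (background 9.16%, 1192 genes), and 5 were lower, CCNE2, CDC6, CCND1, GINS1 and CLSPN (background 5.22%, 679 genes). MCM3 and TYMS were above their own controls in all 6 knockdown libraries (4.76%, background 10.8%), and CCNE2, CDC6, GINS1 and RFC4 were below them in all 6 (9.52%, background 7.92%). Leaving out the siWFDC21P-1-labelled library of set 2 gave the same 6 genes, and leaving out siWFDC21P-2 replicate 1 gave 8 above, CDC25A, E2F1, GINS2, GINS4, MCM3, POLA2, RFC2 and TYMS, and the same 4 below. Among all genes, 204 passed without siWFDC21P-2 replicate 1, 3 without siNC replicate 3 and 0 without any other single library, with 0 of the 42 each time. Without siNC replicate 3, set 3 has no control, so that pooled change rests on the siWFDC21P-1 libraries alone. The difference between the responses to the 2 siRNAs passed for 0 of 42 replication genes and 0 of 13014 genes (0.0%), and at an unadjusted p under 0.05 it was met by 0 of the 42 and by 703 genes of the whole table (5.4%). Without siWFDC21P-2 replicate 1 that difference passed for 182 genes, 0 of them replication genes. The siWFDC21P-1 libraries are in sets 1 and 2 and the siWFDC21P-2 libraries in set 3. A difference between the siRNAs, here and for single genes below, therefore cannot be told apart from one between the sets or their depths.

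**Figure D1:**
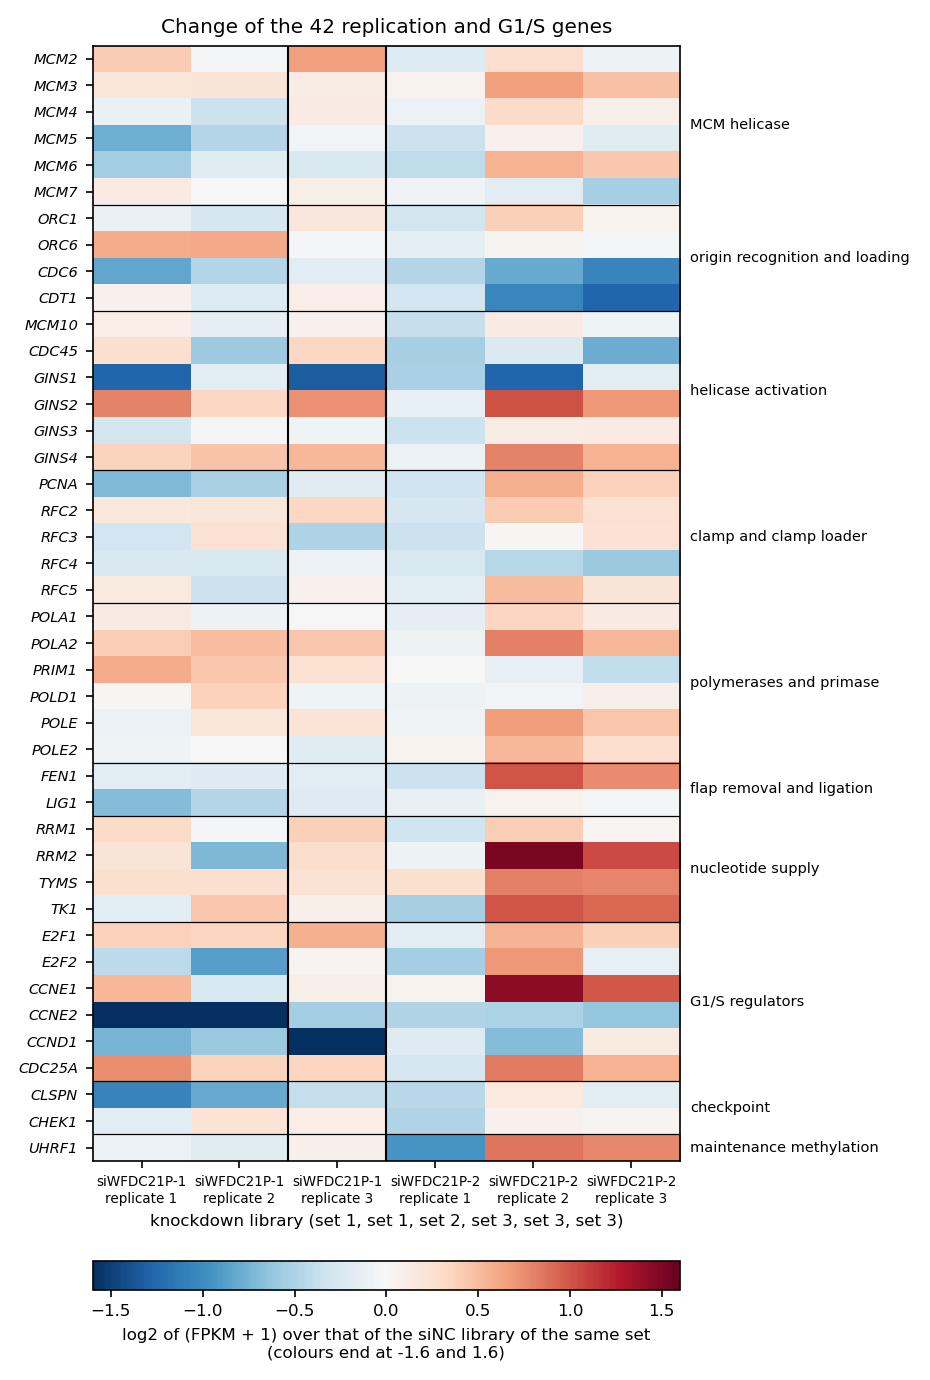
Log2 of (FPKM + 1) in each of the 6 knockdown libraries over that in the siNC library of the same set, for the 42 replication and G1/S genes in rows grouped by role, with red above and blue below the control. The column of siWFDC21P-2 replicate 1 is mostly blue (37 of 42 genes lower, against 6810 of all 13014 tested genes). CCNE2 and CDC6 are blue across all 6 columns, and RRM2, CCNE1 and TK1 are dark red in siWFDC21P-2 replicates 2 and 3.

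Single libraries differed in the level of the whole group. The median log2 ratio of the 42 genes to their own controls was -0.02 in siWFDC21P-1 replicate 1 (21 of 42 higher), -0.11 in replicate 2 (16 higher) and 0.08 in the siWFDC21P-1-labelled library of set 2 (25 higher). In the siWFDC21P-2 libraries it was -0.26 in replicate 1 (5 higher), 0.36 in replicate 2 (32 higher) and 0.13 in replicate 3 (27 higher). The median over all tested genes lay between -0.01 and 0.05 in these 6 libraries, and 47.1% to 55.0% of all tested genes were higher. Over 1.5-fold differences from the control were few in siWFDC21P-2 replicate 1 for all genes, with 0 of the 42 higher (2.2% of all tested genes) and 1 lower (2.9%). In replicate 2, 13 were higher (31.0%, all tested genes 15.7%) and 4 lower (9.52%, all tested genes 11.9%), and in replicate 3, 7 were higher (16.7%, all tested genes 14.7%) and 5 lower (11.9%, all tested genes 10.9%). Replicate 1 and siNC replicate 3 were closest to each other in reads (chi-square per gene 22.2), as were replicates 2 and 3 (16.8), while values across these pairs were 115 to 136. Markers moved along the same split. Of the 8 mesenchymal markers, COL1A2 stood at 80.2, 272 and 224 FPKM in siWFDC21P-2 replicates 1 to 3 against 56.2 FPKM in siNC, and THY1, COL1A1, SPARC and FN1 were also above siNC in all 3 libraries. VIM stood at 309, 162 and 178 FPKM against 310 FPKM in siNC, and MMP14 at 228, 71.9 and 85.9 FPKM against 220 FPKM. CDH2 stayed between 14.7 and 18.1 FPKM, and the summed mesenchymal level at 682 to 721 FPKM. The 4 leukocyte markers summed to 2.07, 7.17 and 8.90 FPKM against 1.21 FPKM in siNC, nearly all of it CD14, with PTPRC at or below 0.160 FPKM. The part of this split in the values of the replication genes was not tested.

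Origin recognition and loading. CDC6, the ATPase that helps place the MCM ring on origins, stood at 19.8 and 25.9 FPKM in the siWFDC21P-1 libraries of set 1 against 36.1 FPKM in siNC, and at 11.9 FPKM in the siWFDC21P-1-labelled library of set 2 against 13.5 FPKM in siNC. In set 3 it stood at 11.6, 8.98 and 7.42 FPKM in siWFDC21P-2 replicates 1 to 3 against 16.5 FPKM in siNC. Every knockdown library was below its own control, by the least in set 2 (0.879-fold) and by the most in siWFDC21P-2 replicate 3 (0.449-fold). Its log2 change was -0.78 ± 0.29 (SE) with siWFDC21P-2 (adjusted p = 0.756 in limma), -0.45 ± 0.24 with siWFDC21P-1 (adjusted p = 0.448) and -0.58 ± 0.18 pooled (adjusted p = 0.242).

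CDT1, its partner in MCM loading, stood at 25.9, 15.1 and 12.8 FPKM in the siWFDC21P-2 libraries against 32.3 FPKM in siNC. It stood at 21.3 and 17.2 FPKM in the siWFDC21P-1 libraries of set 1 against 20.2 FPKM in siNC, and at 19.5 FPKM in the siWFDC21P-1-labelled library of set 2 against 18.0 FPKM. The lower level was thus seen in the 3 libraries of set 3 (log2 change -0.87 ± 0.36, adjusted p = 0.756 in limma), while the siWFDC21P-1 libraries lay on both sides (0.01 ± 0.29). The difference between the siRNAs was 0.88 ± 0.46 with an adjusted p of 0.83. ORC1, the large subunit of the origin recognition complex, had fold values of 0.798 to 1.34 over the 6 libraries. ORC6, the smallest subunit, was 1.56-fold and 1.57-fold higher in the siWFDC21P-1 libraries of set 1 and between 0.891-fold and 1.04-fold in the other 4 libraries.

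The MCM helicase. The 6 subunits of the ring had set means between 16.1 FPKM (MCM5, set 2) and 96.9 FPKM (MCM3, set 1). MCM3 stood at 101 and 102 FPKM in the siWFDC21P-1 libraries of set 1 against 87.9 FPKM in siNC, and at 56.8 FPKM in the siWFDC21P-1-labelled library of set 2 against 52.1 FPKM in siNC. It stood at 45.4, 69.6 and 60.8 FPKM in the siWFDC21P-2 libraries against 43.7 FPKM in siNC. It was the one subunit above its control in all 6 knockdown libraries, with a pooled log2 change of 0.26 ± 0.16 (adjusted p = 0.473 in limma). The fold in siWFDC21P-2 replicate 1 was 1.04 with a 95% interval of 0.985 to 1.10, from an exact binomial interval on the recovered reads that covers counting error only.

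MCM2 stood at 78.3 and 57.5 FPKM in the siWFDC21P-1 libraries of set 1 against 58.7 FPKM in siNC, at 91.9 FPKM in the siWFDC21P-1-labelled library of set 2 against 57.9 FPKM, and at 31.0, 44.1 and 34.2 FPKM in the siWFDC21P-2 libraries against 36.3 FPKM. Libraries of both siRNAs lay on both sides of their controls. MCM5 was below its control in the 3 siWFDC21P-1 libraries (fold 0.568, 0.710 and 0.972), and MCM6 likewise (0.671, 0.872 and 0.840). In siWFDC21P-2 replicates 1 to 3, MCM5 stood at 14.7, 19.9 and 16.5 FPKM against 19.0 FPKM in siNC, above it only in replicate 2 (1.04-fold). MCM6 stood at 14.4, 29.1 and 26.5 FPKM against 19.4 FPKM, below it only in replicate 1 and at 1.5-fold in replicate 2. MCM7 was at 1.10-fold, 1.01-fold and 1.07-fold in the siWFDC21P-1 libraries and at 0.964-fold, 0.890-fold and 0.687-fold in the siWFDC21P-2 libraries. MCM4 ranged over 0.786-fold to 1.25-fold. None of the subunits passed the unadjusted threshold with either siRNA.

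Helicase activation. The 4 GINS subunits, which join CDC45 on the MCM ring, differed from each other in these libraries. GINS1 stood at 1.79 and 5.00 FPKM in the siWFDC21P-1 libraries of set 1 against 5.72 FPKM in siNC, at 4.83 FPKM in the siWFDC21P-1-labelled library of set 2 against 13.5 FPKM, and at 10.0, 5.49 and 12.9 FPKM in the siWFDC21P-2 libraries against 14.7 FPKM. All 6 were lower, but unevenly, with folds of 0.314 and 0.874 side by side in set 1 and of 0.680, 0.373 and 0.876 in set 3. Its pooled log2 change was -0.85 ± 0.31 (adjusted p = 0.281 in limma).

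GINS2 stood at 23.3 and 16.6 FPKM in the siWFDC21P-1 libraries of set 1 against 13.0 FPKM in siNC, at 24.1 FPKM in the siWFDC21P-1-labelled library of set 2 against 14.1 FPKM, and at 2.84, 7.49 and 5.79 FPKM in the siWFDC21P-2 libraries against 3.20 FPKM. It was higher in 5 of 6 libraries, siWFDC21P-2 replicate 1 being the other (0.887-fold, 95% interval 0.711 to 1.11), with a pooled log2 change of 0.59 ± 0.25 (adjusted p = 0.327 in limma). GINS4 was also higher in these 5 libraries, at 1.39-fold to 1.94-fold, and GINS3 stayed between 0.700-fold and 1.14-fold. CDC45 was lower in the 3 siWFDC21P-2 libraries (0.665-fold, 0.842-fold and 0.539-fold) and on both sides in the siWFDC21P-1 libraries (1.21-fold, 0.645-fold and 1.28-fold). MCM10, which binds the activated helicase, stayed between 0.746-fold and 1.11-fold and had the smallest spread of all 42 genes over the 9 libraries, with a highest value 1.63 times the lowest.

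Clamp and clamp loader. PCNA, the sliding clamp that tethers polymerases to DNA, was the most abundant member in 7 of the 9 libraries. It stood at 81.9 and 93.3 FPKM in the siWFDC21P-1 libraries of set 1 against 134 FPKM in siNC, at 119 FPKM in the siWFDC21P-1-labelled library of set 2 against 136 FPKM, and at 81.4, 153 and 132 FPKM in the siWFDC21P-2 libraries against 102 FPKM. The siWFDC21P-1 libraries were all lower (log2 change -0.43 ± 0.28, adjusted p = 0.549 in limma), and those of siWFDC21P-2 lay on both sides (0.20 ± 0.35).

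RFC4, a subunit of the clamp loader, stood at 17.4 and 17.1 FPKM in the siWFDC21P-1 libraries of set 1 against 20.7 FPKM in siNC, at 20.5 FPKM in the siWFDC21P-1-labelled library of set 2 against 22.0 FPKM, and at 16.5, 14.2 and 12.8 FPKM in the siWFDC21P-2 libraries against 19.9 FPKM. All 6 were lower, at 0.645-fold to 0.932-fold, with a pooled log2 change of -0.28 ± 0.13 (adjusted p = 0.365 in limma). The other loader subunits did not share that pattern. RFC2 was above its control in 5 of 6 libraries, RFC3 ranged over 0.706-fold to 1.19-fold, and RFC5 over 0.778-fold to 1.46-fold.

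Polymerases, primase, flap removal and ligation. POLA2, the accessory subunit of the primase-polymerase that starts each fragment, was higher in the 3 siWFDC21P-1 libraries (1.36-fold, 1.46-fold and 1.39-fold) and in siWFDC21P-2 replicates 2 and 3 (1.86-fold and 1.51-fold) but not in replicate 1 (0.941-fold). Its pooled log2 change was 0.44 ± 0.19 (adjusted p = 0.349 in limma), and 35.1% of its exon bases lie under another gene on the same strand. PRIM1, the catalytic primase subunit, stood at 8.23 and 7.22 FPKM in the siWFDC21P-1 libraries of set 1 against 5.09 FPKM in siNC, and at 8.80 FPKM in the siWFDC21P-1-labelled library of set 2 against 7.31 FPKM. In the siWFDC21P-2 libraries it stood at 11.4, 10.2 and 8.36 FPKM against 11.3 FPKM. It was thus above its control with siWFDC21P-1 (log2 change 0.40 ± 0.19, adjusted p = 0.402) and on both sides with siWFDC21P-2, and the difference between the siRNAs was 0.57 ± 0.30 (adjusted p = 0.83 in limma).

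The polymerase subunits POLA1 and POLD1 stayed within 0.891-fold to 1.30-fold. POLE, the catalytic subunit of the leading-strand polymerase, reached 1.73-fold and 1.44-fold in siWFDC21P-2 replicates 2 and 3. POLE2, its accessory subunit, stood at 4.76 and 5.02 FPKM in the siWFDC21P-1 libraries of set 1 against 5.02 FPKM in siNC, at 3.01 FPKM in the siWFDC21P-1-labelled library of set 2 against 3.60 FPKM, and at 4.18, 6.19 and 5.00 FPKM in the siWFDC21P-2 libraries against 3.97 FPKM. With siWFDC21P-1 it was thus at or below the control (fold 0.999 in replicate 2) and with siWFDC21P-2 above it. FEN1, the nuclease that trims flaps between fragments, stood at 22.8, 59.2 and 49.9 FPKM in the siWFDC21P-2 libraries against 29.1 FPKM in siNC, with replicate 1 below and replicates 2 and 3 well above the control. In the siWFDC21P-1 libraries it lay at 0.863-fold to 0.879-fold in all 3.

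LIG1, the ligase that seals the fragments, stood at 6.90 and 8.28 FPKM in the siWFDC21P-1 libraries of set 1 against 11.8 FPKM in siNC, and at 6.96 FPKM in the siWFDC21P-1-labelled library of set 2 against 8.17 FPKM. Its log2 change was -0.42 ± 0.17 with siWFDC21P-1 (adjusted p = 0.348 in limma). In the siWFDC21P-2 libraries it lay between 0.906-fold and 1.05-fold.

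Nucleotide supply. TYMS, which makes the thymidine precursor dTMP, stood at 9.62 and 9.65 FPKM in the siWFDC21P-1 libraries of set 1 against 7.88 FPKM in siNC, and at 22.9 FPKM in the siWFDC21P-1-labelled library of set 2 against 19.4 FPKM. It stood at 4.93, 7.69 and 7.49 FPKM in the siWFDC21P-2 libraries against 3.95 FPKM in siNC. All 6 knockdown libraries were above their own controls, at 1.18-fold to 1.95-fold. The log2 change was 0.62 ± 0.26 with siWFDC21P-2 (adjusted p = 0.756 in limma), 0.25 ± 0.21 with siWFDC21P-1 (adjusted p = 0.642) and 0.39 ± 0.16 pooled (adjusted p = 0.329). Exons of ENOSF1, which runs on the opposite strand, cover 39.1% of its exon bases, and the labels do not say whether counting used the strand, so reads of the pair cannot be told apart.

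RRM2, the S phase subunit of ribonucleotide reductase, stood at 25.4, 78.1 and 57.0 FPKM in the siWFDC21P-2 libraries against 26.9 FPKM in siNC. Replicates 2 and 3 were 2.91-fold (95% interval 2.77 to 3.06) and 2.12-fold (2.02 to 2.23) above the control, and replicate 1 was beside it (0.945-fold, 0.890 to 1.00). In the siWFDC21P-1 libraries RRM2 stood at 54.8 and 28.2 FPKM against 47.2 FPKM in siNC in set 1, and at 89.4 FPKM against 73.2 FPKM in set 2, on both sides of the controls. Its log2 change was 0.83 ± 0.60 with siWFDC21P-2 (adjusted p = 0.756 in limma) and -0.02 ± 0.48 with siWFDC21P-1. TK1, the thymidine salvage kinase, followed the same order in set 3, with 13.0, 39.6 and 37.1 FPKM in the siWFDC21P-2 libraries against 19.2 FPKM in siNC. RRM1, the large reductase subunit, stayed between 0.796-fold and 1.33-fold.

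G1/S regulators. CCNE2, one of the cyclins that activate CDK2 before S phase, had the lowest p of the 42 genes with siWFDC21P-1 and pooled. It stood at 1.39 and 1.03 FPKM (177 and 135 reads) in the siWFDC21P-1 libraries of set 1 against 6.87 FPKM (883 reads) in siNC, and at 2.06 FPKM in the siWFDC21P-1-labelled library of set 2 against 3.45 FPKM in siNC. In set 3 it stood at 3.63, 3.56 and 3.22 FPKM in the siWFDC21P-2 libraries against 5.46 FPKM. All 6 were lower, at 0.203-fold and 0.151-fold in set 1, 0.598-fold in set 2 and 0.666-fold, 0.653-fold and 0.589-fold in set 3. Its log2 change was -1.28 ± 0.28 with siWFDC21P-1 (adjusted p = 0.14 in limma), -0.53 ± 0.35 with siWFDC21P-2 (adjusted p = 0.756) and -0.99 ± 0.24 pooled (adjusted p = 0.193). INTS8 on the opposite strand covers 37.0% of its exon bases, so reads of the pair cannot be told apart.

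CCNE1, the other cyclin E, did not follow CCNE2. It stood at 20.1 and 11.3 FPKM in the siWFDC21P-1 libraries of set 1 against 13.6 FPKM in siNC, at 41.2 FPKM in the siWFDC21P-1-labelled library of set 2 against 38.4 FPKM, and at 6.36, 18.2 and 13.1 FPKM in the siWFDC21P-2 libraries against 6.09 FPKM. In replicates 2 and 3 of siWFDC21P-2 it was 2.99-fold and 2.16-fold above the control, where CCNE2 was 0.653-fold and 0.589-fold, and in replicate 1 it was 1.04-fold (95% interval 0.878 to 1.24). The log2 change was 0.83 ± 0.51 with siWFDC21P-2 (adjusted p = 0.756 in limma) and 0.13 ± 0.41 with siWFDC21P-1.

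CCND1 encodes cyclin D1, the partner of CDK4 and CDK6 that starts RB phosphorylation. It stood at 52.7 and 58.5 FPKM in the siWFDC21P-1 libraries of set 1 against 88.8 FPKM in siNC, and at 15.4 FPKM in the siWFDC21P-1-labelled library of set 2 against 69.3 FPKM. In the siWFDC21P-2 libraries it stood at 27.3, 19.2 and 35.0 FPKM against 31.6 FPKM. It was lower in the 3 siWFDC21P-1 libraries, by the most in set 2 (0.221-fold), and on both sides in those of siWFDC21P-2. The log2 change was -1.28 ± 0.36 with siWFDC21P-1 (adjusted p = 0.21 in limma) and -0.25 ± 0.45 with siWFDC21P-2, and the difference of -1.03 ± 0.58 had an adjusted p of 0.83.

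E2F1, an activator of the whole programme, stood at 24.0 and 23.6 FPKM in the siWFDC21P-1 libraries of set 1 against 18.4 FPKM in siNC, at 25.7 FPKM in the siWFDC21P-1-labelled library of set 2 against 17.0 FPKM, and at 24.4, 40.7 and 36.0 FPKM in the siWFDC21P-2 libraries against 27.5 FPKM. It was higher in 5 of 6 libraries (pooled log2 change 0.37 ± 0.17, adjusted p = 0.369 in limma). E2F2 ranged over 0.495-fold to 1.73-fold. CDC25A, the phosphatase that activates CDK2, was higher in the same 5 libraries as E2F1, at 1.29-fold to 1.88-fold, and 0.810-fold in siWFDC21P-2 replicate 1.

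**Figure D2:**
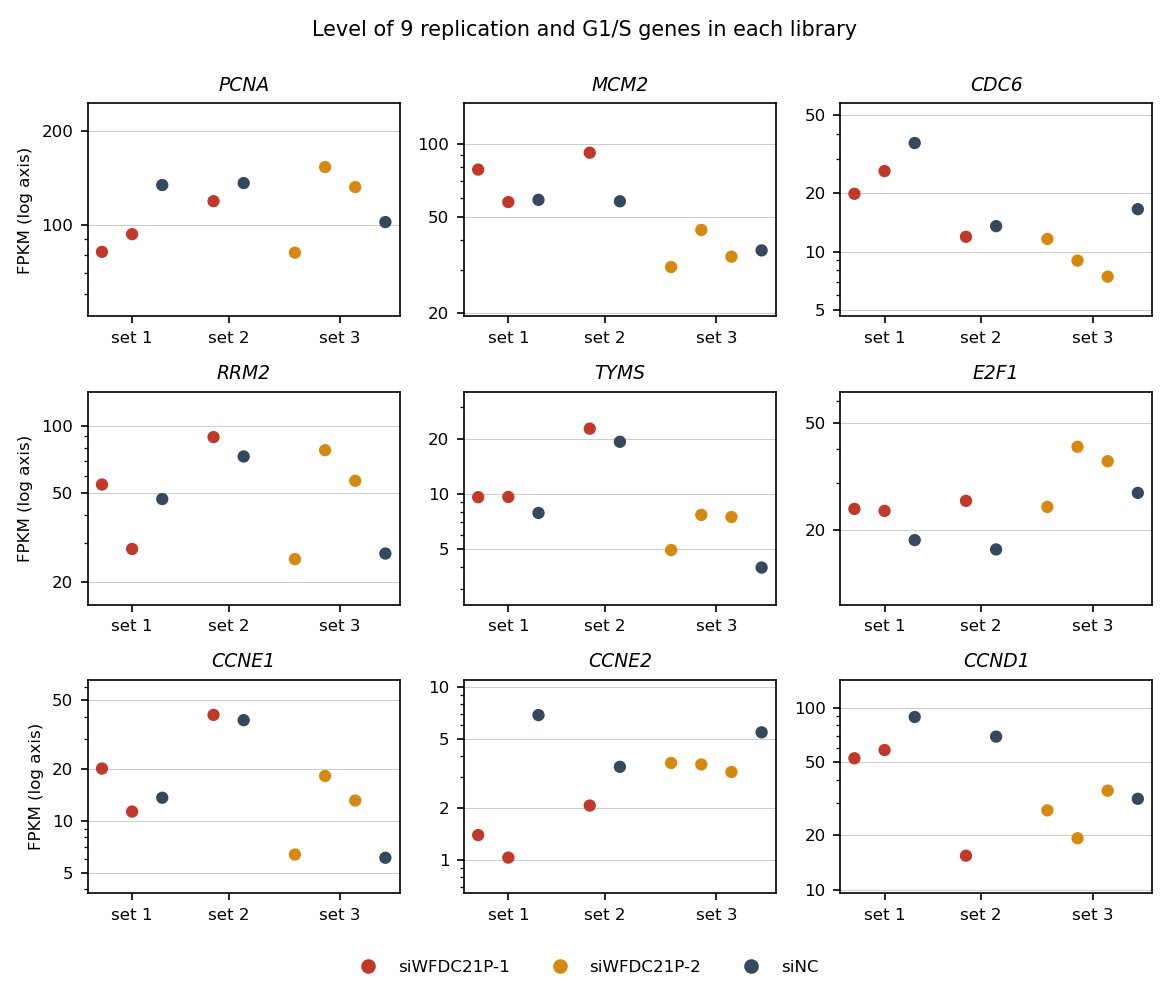
FPKM on log axes of 9 replication and G1/S genes in each library, with the 3 expression sets along the horizontal axis and, within each set, the knockdown libraries to the left of siNC. CCNE2 and CDC6 lie below siNC in every set, TYMS lies above it in every set, and RRM2 and CCNE1 in set 3 lie beside siNC in 1 library and above it in the other 2.

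Checkpoint and maintenance methylation. CLSPN, the claspin adaptor that links stalled forks to CHEK1, stood at 4.91 and 6.10 FPKM in the siWFDC21P-1 libraries of set 1 against 11.4 FPKM in siNC, at 8.48 FPKM in the siWFDC21P-1-labelled library of set 2 against 11.3 FPKM, and at 4.99, 8.05 and 6.23 FPKM in the siWFDC21P-2 libraries against 7.13 FPKM. It was lower in the 3 siWFDC21P-1 libraries (log2 change -0.70 ± 0.24, adjusted p = 0.266 in limma) and on both sides with siWFDC21P-2 (-0.15 ± 0.29). CHEK1, the kinase it serves, stayed between 0.692-fold and 1.19-fold. UHRF1, which brings the maintenance methylase to new DNA, stood at 5.45, 21.4 and 20.1 FPKM in the siWFDC21P-2 libraries against 11.4 FPKM in siNC, so replicate 1 lay at 0.479-fold and replicates 2 and 3 at 1.88-fold and 1.77-fold. In the siWFDC21P-1 libraries it lay between 0.872-fold and 1.06-fold.

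The replication genes were set beside 50 genes of mitosis in the same libraries, and the difference between the lists is described without a test. With siWFDC21P-1, 10 of the 42 replication genes were above their own controls in all 3 libraries and 13 below, against 35 of 50 mitotic genes above (70.0%, background 27.9%) and 1, CKAP2, below (2.0%, background 20.7%). With siWFDC21P-2, 4 replication genes were above and 7 below, against 30 mitotic genes above (60.0%, background 26.9%) and 0 below (background 26.0%). In all 6 libraries, 2 replication genes were above and 4 below, against 22 mitotic genes above (44.0%, background 10.8%) and 0 below (background 7.92%). Median log2 changes of the mitotic genes were 0.44 with siWFDC21P-1, 0.60 with siWFDC21P-2 and 0.49 pooled, and the replication median minus the mitotic one was -0.43, -0.56 and -0.44. No mitotic gene passed the adjusted threshold either, the lowest adjusted p in limma being 0.114, 0.756 and 0.181, and at an unadjusted p under 0.05 the higher mitotic genes numbered 8 with siWFDC21P-1 (16.0%, background 8.69%), 1 with siWFDC21P-2 (2.0%, background 2.89%) and 22 pooled (44.0%, background 9.16%). Without the set 2 pair the difference between the medians was -0.66 for siWFDC21P-1 and -0.56 pooled, and within set 2 alone it was -0.14 for siWFDC21P-1.

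Library by library, the mitotic medians were 0.73 and 0.52 in the siWFDC21P-1 libraries of set 1 and 0.23 in the siWFDC21P-1-labelled library of set 2, where the replication medians were -0.02, -0.11 and 0.08. They were 0.05, 0.82 and 0.86 in siWFDC21P-2 replicates 1 to 3, where the replication medians were -0.26, 0.36 and 0.13. The mitotic median lay above the replication median in each of the 6 libraries. CENPA, the centromeric histone, stood at 20.3 and 12.6 FPKM in the siWFDC21P-1 libraries of set 1 against 4.03 FPKM in siNC, at 49.0 FPKM in the siWFDC21P-1-labelled library of set 2 against 21.4 FPKM, and at 6.81, 17.5 and 19.1 FPKM in the siWFDC21P-2 libraries against 5.26 FPKM. Its pooled log2 change was 1.38 ± 0.32 (adjusted p = 0.181 in limma), and GINS2 had the highest pooled value of the replication genes at 0.59. INCENP and HMMR, both spindle-associated, had pooled log2 changes of 0.75 ± 0.19 and 0.69 ± 0.19.

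**Figure D3:**
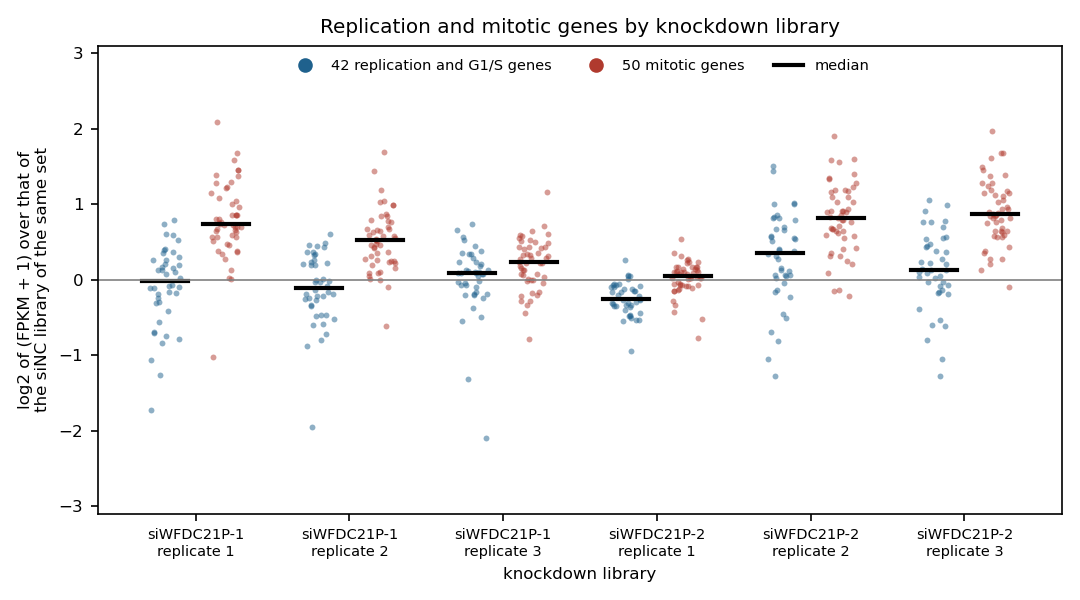
Log2 of (FPKM + 1) in each knockdown library over that in the siNC library of its set, for the 42 replication and G1/S genes (blue) and the 50 mitotic genes (red), with black bars at the medians. The mitotic median is above the replication median in all 6 libraries, by the least in siWFDC21P-1 replicate 3, the library of set 2 (0.08 for the replication genes and 0.23 for the mitotic genes).

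A further 42 genes of the replication machinery, listed by name and not by how they moved, were described beside them, and 41 of these were tested. Their median log2 changes were 0.01 with siWFDC21P-1, 0.02 with siWFDC21P-2 and -0.01 pooled, and 0 passed the adjusted threshold. With siWFDC21P-1, TICRR (0.69 ± 0.22), CDC7 (0.53 ± 0.22) and POLD2 (0.47 ± 0.19) were higher at an unadjusted p under 0.05 and 0 were lower, and these 3 (7.32%) lie below the background of 8.69%. TICRR encodes treslin, which helps load CDC45 at origins, CDC7 encodes the kinase that phosphorylates the MCM ring, and POLD2 encodes a subunit of the lagging-strand polymerase. Pooled, TICRR, CDC7 and TIPIN, a fork protection protein, were higher at that level, and MCMBP, which binds the MCM proteins, and SLBP, which binds histone mRNA, were lower. These shares of 7.32% and 4.88% lie below the backgrounds of 9.16% and 5.22%, so neither count is a result about the list. In siWFDC21P-2 replicate 1, 36 of the 41 were below the control, as 37 of the 42 were, and in replicates 2 and 3, 14 and 16 were. Of all 13014 tested genes, 6810, 6043 and 5951 were below it in replicates 1 to 3.

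Upstream of E2F, the 30 listed genes of the RB and CDK axis (29 tested) held 1 gene that passed with siWFDC21P-1. The background was 0.0231% (3 of 13014 genes). None of the 29 passed with siWFDC21P-2 or pooled. In all 6 libraries, 5 of the 29 were above their own controls (background 10.8%) and 4 below (background 7.92%). CDKN1A fell with siWFDC21P-1, with 65.8 and 54.6 FPKM in the siWFDC21P-1 libraries of set 1 against 324 FPKM in siNC, and 8.55 FPKM in the siWFDC21P-1-labelled library of set 2 against 50.6 FPKM (log2 change -2.42 ± 0.21, adjusted p = 0.0442 in limma). This call was lost wherever 0 genes passed, which includes leaving out siNC replicate 1 or siWFDC21P-1 replicate 1, and its difference from the siWFDC21P-2 change was -1.20 ± 0.33 (adjusted p = 0.83). It stood at 11.7, 7.52 and 10.1 FPKM in the siWFDC21P-2 libraries against 23.8 FPKM (-1.23 ± 0.26, adjusted p = 0.756). CDKN2A, which encodes p16 and ARF, was present in all 9 libraries, at 77.6, 79.8 and 55.8 FPKM in the siWFDC21P-1 libraries against 47.8 FPKM in siNC of set 1 and 47.2 FPKM in siNC of set 2, and at 97.3, 117 and 140 FPKM in the siWFDC21P-2 libraries against 89.9 FPKM. CDKN2C, which encodes p18, stood at 9.10, 99.7 and 63.4 FPKM in the siWFDC21P-2 libraries against 6.56 FPKM in siNC. Replicates 2 and 3 were the libraries in which RRM2, CCNE1 and TK1 were also well above that control.

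RB1, the pocket protein that restrains E2F factors, was ordered by set. It stood at 10.8 and 15.5 FPKM in the siWFDC21P-1 libraries of set 1 against 15.0 FPKM in siNC, at 2.04 FPKM in the siWFDC21P-1-labelled library of set 2 against 1.82 FPKM, and at 3.52, 3.52 and 3.74 FPKM in the siWFDC21P-2 libraries against 3.43 FPKM. RBL2, which encodes the RB relative p130, was higher in all 6 libraries (pooled log2 change 0.50 ± 0.16, adjusted p = 0.245 in limma), and TFDP1, the dimer partner of E2F factors, was higher with siWFDC21P-2 (0.84 ± 0.33, adjusted p = 0.756). CDK6, a cyclin D kinase, stood between 4.00 and 8.23 FPKM throughout (pooled log2 change -0.22 ± 0.19). MYBL2, which encodes B-MYB, was higher in all 6 libraries, at 88.4, 81.7 and 186 FPKM with siWFDC21P-1 against 55.1 and 94.8 FPKM in siNC of sets 1 and 2, and at 55.4, 132 and 137 FPKM with siWFDC21P-2 against 54.9 FPKM in siNC of set 3 (pooled 0.80 ± 0.28, adjusted p = 0.272).

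**Figure D4:**
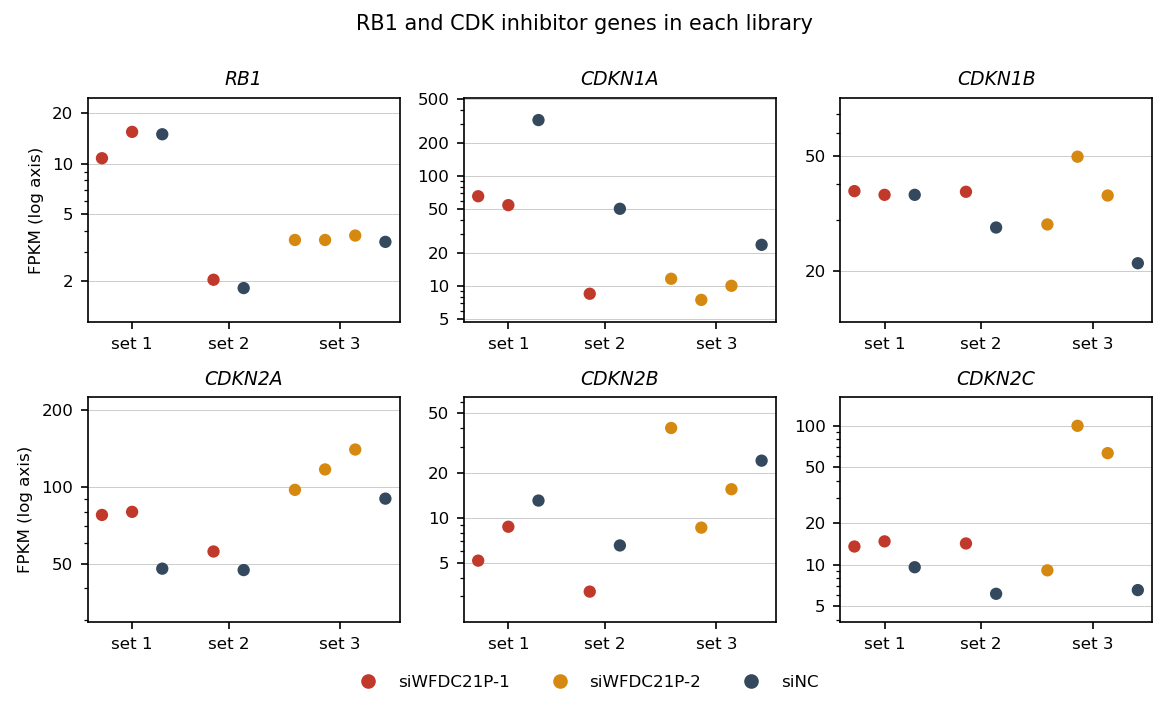
FPKM on log axes of RB1 and 5 CDK inhibitor genes in each library, with the 3 expression sets along the horizontal axis and, within each set, the knockdown libraries to the left of siNC. CDKN1A lies below siNC in every set, CDKN2C lies far above siNC in 2 of the 3 siWFDC21P-2 libraries, and RB1 differs by set (10.8 to 15.5, 1.82 to 2.04 and 3.43 to 3.74 FPKM).

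Levels of the replication genes differed between the expression sets, which is given as a description with no test because the sets were found from the same libraries. The median of the 42 genes was 17.0 to 18.8 FPKM in set 1, 15.8 and 15.9 FPKM in set 2 and 9.55 to 13.9 FPKM in set 3. Set 3 was below all other libraries for 13 genes (31.0%, background 20.6%) and above them for 0 (background 15.1%). These 13 were GINS2, GINS3, LIG1, MCM2, MCM7, ORC6, POLD1, POLE, RFC2, RRM1, TK1, TYMS and UHRF1, led by GINS2 at 2.84 to 7.49 FPKM, 0.263 times the mean of the other sets, then TK1 at 0.396 and TYMS at 0.398 times. The depth of set 3 was also the lowest of the sets. Its 4 libraries were also those whose tables listed 29104 genes, against 34377 genes in the tables of sets 1 and 2. Set 3 also differed from the others in mesenchymal and epithelial markers, so cell identity, depth and this table layout cannot be told apart here. Their part in these levels was not tested.

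Set 1 was above all other libraries for 10 genes (23.8%, background 14.1%), namely CDC25A, CDC6, MCM3, MCM4, MCM5, ORC1, POLA1, POLE, RRM1 and UHRF1, and below them for CHEK1 (2.38%, background 13.6%). CDC25A stood at 22.9 to 39.0 FPKM in set 1, 2.77 times the mean of the other sets, CDC6 at 19.8 to 36.1 FPKM, 2.29 times, and RRM1 at 58.6 to 73.3 FPKM, 1.9 times. GINS1, CHEK1 and CCNE1 were the lowest relative to the other sets, at 0.418, 0.485 and 0.591 times. Set 2 was above all other libraries for 8 genes (19.0%, background 19.1%), namely CCNE1, CHEK1, E2F2, GINS3, MCM7, RFC3, TK1 and TYMS, and below them for POLE2 (2.38%, background 12.6%). CCNE1 stood there at 41.2 FPKM in the siWFDC21P-1-labelled library and 38.4 FPKM in siNC, 3.07 times the mean of the other sets, RFC3 at 45.3 and 64.2 FPKM, 2.87 times, and TYMS at 22.9 and 19.4 FPKM, 2.81 times. The mitotic genes were ordered differently, with 25 of 50 highest in set 2 and 10 of 50 lowest in set 1. Lowest in set 2 relative to the other sets were CDC25A at 0.611 times, CDC6 at 0.660 times and POLE2 at 0.677 times. In set 3, GINS1 (1.62 times), E2F1 (1.48 times) and PRIM1 (1.39 times) were the highest relative to the other sets.

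**Figure D5:**
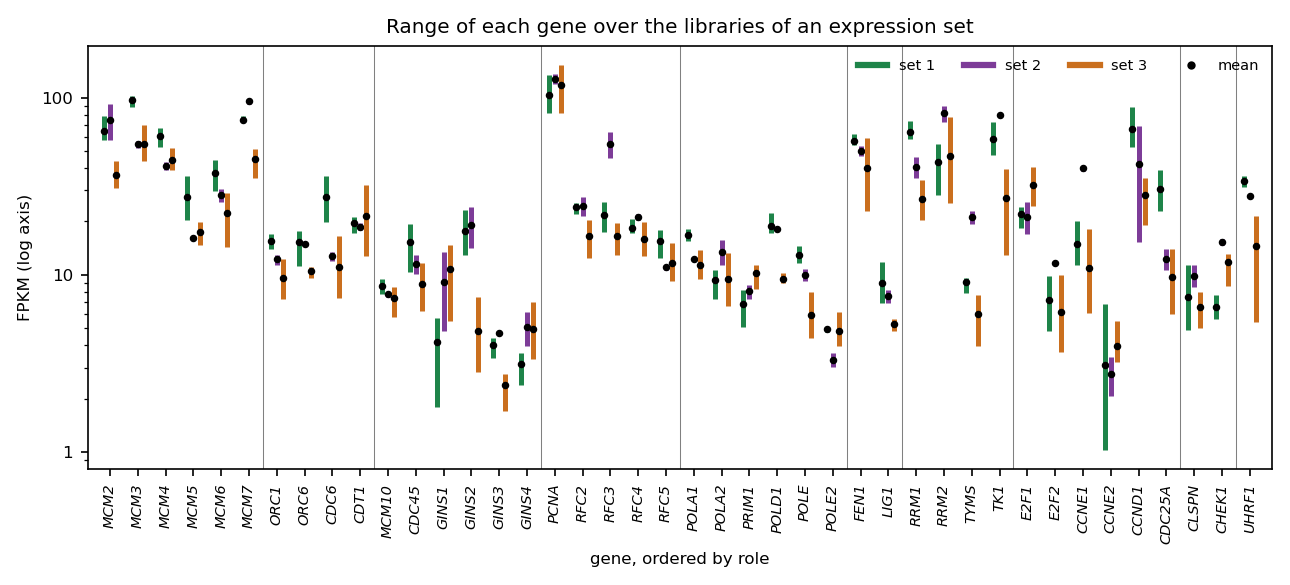
FPKM on a log axis of the 42 genes ordered by role, with a bar for the range over the libraries of set 1 (green), set 2 (purple) and set 3 (orange) and a dot at each mean, which covers the shortest bars. For GINS2, TK1 and TYMS the bar of set 3 lies below both others, and for CCNE1, RFC3 and TYMS the bar of set 2 lies above both others.

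Of the 42 genes, 19 share exon bases with another gene of the annotation, which bears on the members named above as lower or higher in all 6 libraries only for CCNE2 (37.0% with INTS8), TYMS (39.1% with ENOSF1) and RFC4 (0.7% with EIF4A2). CDC6, GINS1 and MCM3 share none.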

How the data were processed

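RNA was sequenced from 9 libraries, and the values are FPKM per gene, 1 table per library, as deposited by the authors. Per the submitters' processing notes, HISAT2 2.1.0, Bowtie2 2.2.3 and HTSeq 0.6.0 were used with hg38, with no roles given. Whether counting used the strand is not given in the sources used here, and the labels do not say how many separate transfections the replicates stand for, so p-values measure the spread between libraries.

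The tables came in 2 layouts, of 34377 genes (5 libraries, sets 1 and 2) and 29104 genes (4 libraries, set 3). They had 26636 genes in common, 26274 of them given a symbol. FPKM were whole multiples of 1 read for 26363 genes (99.0%), which gave reads and depth (tolerance 0.02 reads). Fold intervals (95%, exact binomial on these reads) cover counting error only. No pair of libraries agreed within sampling noise (lowest chi-square per gene 16.8).

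Libraries were clustered into sets (average linkage on 1 minus Pearson r, split at 0.15) without the replication and mitotic genes. Group effects were fitted with limma 3.58.1 in R 4.3.3 on log2(FPKM + 1) with group and set, an intensity trend and Benjamini-Hochberg adjustment at 0.05 over 13014 genes. The fit was tested on simulated data. Figures and counts used Python 3.11.15. Promoter windows came from RefSeq (GRCh38.p14).

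The members and lists were chosen with earlier results of these data known. Named in full were up to 6 members per comparison and direction with every knockdown library on one side of its control, 9 markers of the roles, and per set the 3 highest and 3 lowest members. Of every other list, up to 3 genes per comparison and direction with the smallest p were eligible, plus RB1, CDKN1A, CDKN2A and CDK6, and CCNB2 and CDC20 were added for their promoters after their values were seen, as were some genes named in counts. Alternatives covered the pseudocount, the filter, the normalization, the background term, the replicate block, a voom fit on recovered reads and leaving out each library.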

Additional observations from a re-analysis of the deposited data

Results flagged for a closer look

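For 2 of the 42 genes, the libraries of the 2 siRNAs lay on opposite sides of their own controls. The share of all tested genes with that pattern is not given, so the count is not a result about the members. Above their controls in every library were 27.9% of all tested genes with siWFDC21P-1 and 26.9% with siWFDC21P-2. Below them were 20.7% and 26.0%. MCM7, a subunit of the MCM helicase, was at 1.10-fold, 1.01-fold and 1.07-fold in the siWFDC21P-1 libraries and at 0.964-fold, 0.890-fold and 0.687-fold in the siWFDC21P-2 libraries, and the difference of the log2 changes, siWFDC21P-1 minus siWFDC21P-2, was 0.33 ± 0.30 (SE, adjusted p = 0.851 in limma). POLE2, the accessory subunit of the leading-strand polymerase, was at 0.948-fold, 0.999-fold and 0.836-fold in the siWFDC21P-1 libraries and at 1.05-fold, 1.56-fold and 1.26-fold in the siWFDC21P-2 libraries, and the difference was -0.39 ± 0.30 (adjusted p = 0.831). Neither difference passed the test of the difference itself, the libraries of a siRNA within a set share a control, and several of the folds lie close to 1. No set held libraries of both siRNAs, so these differences cannot be told apart from differences between sets.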

How the results depend on the processing

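The replication genes kept 0 calls under every alternative run except that leaving out siWFDC21P-2 replicate 1 gave 4 with siWFDC21P-2 (CDT1, FEN1, TYMS and UHRF1). Of 3512 changes of the 42 genes under the alternatives, 3275 kept the direction, 233 took the other sign without being called and 4 were newly called, and none of the 42 had a call to lose. Counts over all genes were less stable. Libraries outside the sets of a siRNA enter its count only through the shared spread, and the cause of the other shifts was not tested. With siWFDC21P-1, 3 genes passed, against 0 with the table layout in place of the set, with no background term, with the replicate block, with no filter, after centring on library medians, in only the sets that hold the knockdown, and with set 1 left out. The count was 26 at a mean of at least 5 FPKM and also 26 with limma-voom on recovered reads, 16 after quantile normalization, and 0 to 153 without single libraries. With siWFDC21P-2, 0 genes passed, against 17 with no filter and 0 to 902 without single libraries. Pooled, 1 gene passed, against 0 under the first 5 of these settings and with set 1 or set 2 left out, 2 with a pseudocount of 0.1 and 0 to 204 without single libraries. The difference between the siRNAs passed for 0 genes, against 7 with no filter and 0 to 182 without single libraries.

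The median change of the replication genes was 0.16 with siWFDC21P-1 and -0.35 with siWFDC21P-2 when the background term was left out, against 0.01 and 0.04 with it. Without single libraries it ranged over -0.05 to 0.08, -0.04 to 0.21 and, pooled, -0.04 to 0.07, and the replication median minus the mitotic median over -0.66 to -0.14, -0.61 to -0.42 and -0.56 to -0.39. Leaving out set 1 or set 2 was chosen after seeing the data, as were the counts on one side without siWFDC21P-1 replicate 3 or siWFDC21P-2 replicate 1.

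With the replicate block the medians were -0.08, 0.16 and, pooled, 0.03, and 0 genes passed in every comparison. Deviations of libraries with the same number had correlations of 0.67, -0.68 and -0.06 (siWFDC21P-1 with siNC) and -0.12, 0.11 and -0.20 (siWFDC21P-2 with siNC). These deviations were from group means, with the set not removed. With siWFDC21P-1 replicate 2, of its own set but another number, siNC replicate 1 had a correlation of 0.68. The check therefore cannot show whether the numbers pair libraries. Without siNC replicate 3 the siWFDC21P-2 change and the difference could not be estimated, and the pooled change rested on sets 1 and 2 alone. The fit in only the sets that hold the knockdown gives no pooled value. Set 3 had the lowest depth, and each set has 1 siNC library, so the error of that library enters every change in its set.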

Other observations

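Among promoter windows counted by gene, 22 of 37 replication genes (59.5%) held an E2F octamer, as did 11 of 33 of the further replication genes (33.3%), 3 of 24 genes of the RB and CDK axis (12.5%), 3 of 42 mitotic genes (7.14%) and 3.99% of the 27305 genes in the table. The CHR element was present in 2 of 37 replication genes (5.41%), 4 of 33 further replication genes (12.1%), 6 of 24 genes of the RB and CDK axis (25.0%), 32 of 42 mitotic genes (76.2%) and 19.5% of all genes. These shares describe letters in the windows and were not tested against the changes.

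Summed over the mitotic list, FPKM were 1750 and 1420 in the siWFDC21P-1 libraries of set 1 against 1000 in siNC, 2630 in the siWFDC21P-1-labelled library of set 2 against 2340, and 1230, 1970 and 2180 in the siWFDC21P-2 libraries against 1190. Summed over the 42 replication genes, they were 1170 and 1130 against 1240 in set 1, 1200 against 1190 in set 2, and 639, 1000 and 873 against 760 in set 3.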
